A study of Mus musculus with 24 samples.

Results

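The conjugation enzyme genes described here belong to 3 families of the mouse kidney: the UDP-glucuronosyltransferases (Ugt), the glutathione S-transferases (Gst) and the sulfotransferases (Sult). Members were protein-coding genes whose symbols place them in the Ugt1a, Ugt2a, Ugt2b or Ugt3a subfamilies, in the alpha, kappa, mu, omega, pi, theta or zeta classes of Gst, or in Sult, and whose normalized count averaged at least 10 over 24 libraries. Of 64 such protein-coding genes 39 reached that level, 13 Ugt, 19 Gst and 7 Sult, among 17333 genes tested in all. The libraries held poly A RNA of kidneys of male mice in the middle of the active period, male mice in the middle of the inactive period, female mice in the active period and female mice in the inactive period, 6 libraries each. The study asked how kidney RNA differs between these periods in either sex. No source used here gives the strain, genotype, age, clock hour, feeding or any agent. The labels do not say that each library is a separate animal, so p-values measure the spread between libraries, which may be technical.

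Conjugation is the step in which a polar group is joined to a steroid, bile acid, drug or reactive by-product so that it dissolves in water and can leave the body. Ugt enzymes sit in the endoplasmic reticulum and add glucuronic acid from UDP-glucuronic acid, Gst enzymes add glutathione, and Sult enzymes add sulfate from the donor PAPS. In the kidney these enzymes are known mainly from the proximal tubule, where glutathione conjugates are also trimmed and acetylated to mercapturic acids for the urine.

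The 39 genes held 0.627% of the normalized signal, and recovered depth was 31.04 to 39.3 M reads per library. Levels compared between genes are normalized counts per kilobase of exon, averaged over all libraries. Ugt2b38 led at 17604 per kilobase, followed by Sult1d1 at 16025, Ugt3a2 at 15580.3, Gsta2 at 10069 and Gstm1 at 8273. Ugt2b38 led through its male level, since in females it stood at 1511 in the active and 2162 in the inactive period, below Sult1d1, Ugt3a2, Gsta2 and Gstm1. Each family had a gene among these, while Sult6b1 was lowest of all kept members at 6.505 per kilobase. The kept genes had between 345 and 1144167 reads over all libraries. The other 25 genes of the families stayed below the filter and were not tested, among them 14 Sult, 8 Ugt and 3 Gst genes. Of these, 10 had no read in 827 M, which allows up to 0.00363 reads in 1 M (3 reads over all libraries, counting error only): Sult1c1, Sult2a1, Sult2a2, Sult2a5, Sult2a6, Sult2a8, Sult3a1, Sult3a2, Ugt2a1 and Ugt2a2. This limit may not hold for Ugt2a1 and Ugt2a2, which have 98.8% and 94.5% of their exonic bases in exons of another gene. It may also fail for Sult2a2, with 62.1% of its 50-base words in another gene. The other 15 had 1 to 128 reads over all libraries: Gstm3, Gstp3, Gstt4, Sult1e1, Sult2a3, Sult2a4, Sult2a7, Sult4a1, Sult6b2, Ugt1a5, Ugt1a8, Ugt1a9, Ugt2b1, Ugt2b35 and Ugt2b36. Sult1e1, the oestrogen sulfotransferase, had 10 reads, and the hydroxysteroid sulfotransferases of the Sult2a group had at most 90 each.

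More of these genes differed between the sexes than between the periods. In the active period 29 of the 39 genes passed the test between males and females, 17 higher and 12 lower in males, at an adjusted p under 0.05 over all 17333 genes. Of all genes tested 60.6% passed in that comparison, 30.1% higher and 30.5% lower, so the count has to be read against a wide background. In the inactive period 30 of the 39 passed, 16 higher and 14 lower in males, against 55.7% of all genes, 27.9% higher and 27.8% lower. Differences of at least 2-fold that also passed were found for 15 members in either period, against 10.1% of all genes in the active and 8.69% in the inactive period. The median absolute log2 fold was 0.76 for the members and 0.37 for all genes in the active period, and 0.70 against 0.33 in the inactive period. The ranges of males and females did not overlap for 22 members in the active period, against 36.3% of all genes, and for 24 in the inactive period, against 32.3%. Of the members 15 were higher in males in both periods and 11 lower in both, and 6 passed in neither. The remaining 7 passed in 1 period only, none with opposite calls. Joint calls over both periods were not counted over all genes.

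**Figure D1:**
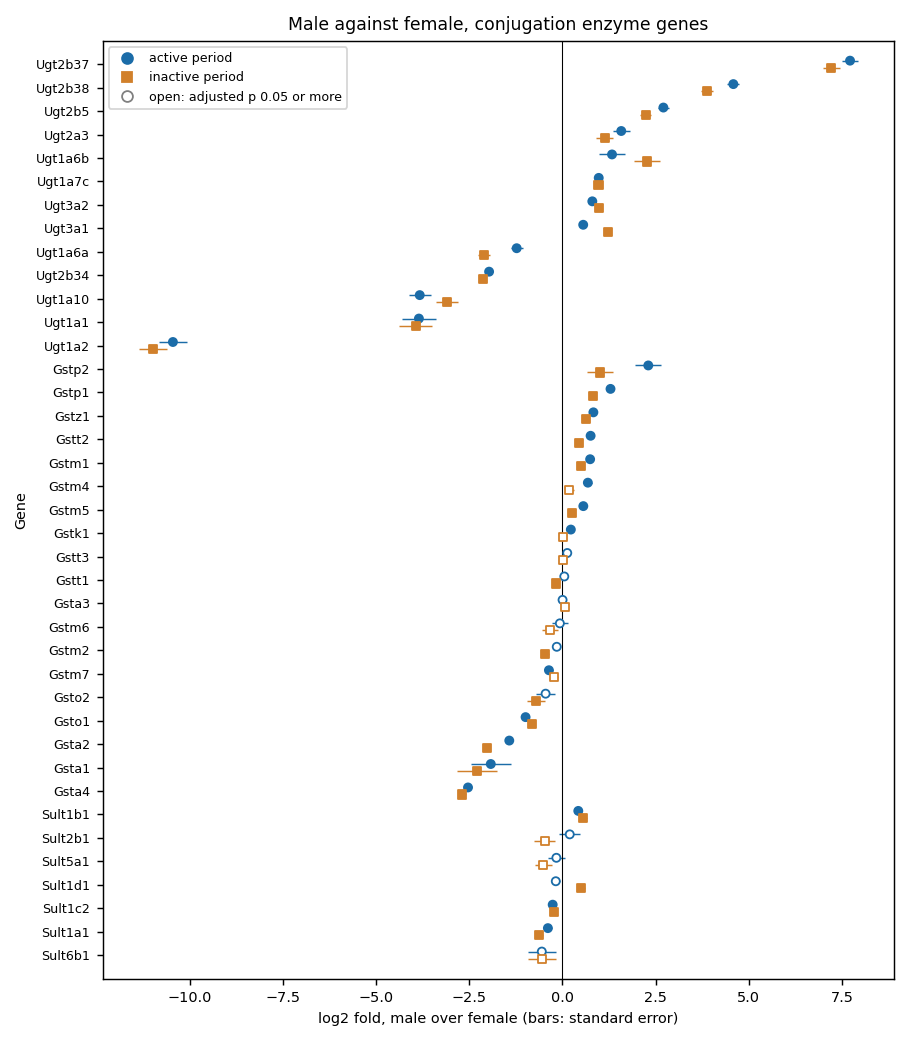
Log2 fold of males over females (horizontal axis, on the log2 of normalized count + 1 scale, bars are standard errors) for the 39 genes in rows, with circles for the active and squares for the inactive period. Filled symbols passed the test. The Ugt genes at the top reach from 7.72 for Ugt2b37 to -10.46 for Ugt1a2 in the active period, and the Sult genes at the bottom stay within 1 log2 unit of 0.

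All 13 Ugt genes passed in both periods, 8 higher and 5 lower in males, with the same gene in the same direction each time. Of all genes 60.6% passed in the active and 55.7% in the inactive period. The median absolute log2 fold of the Ugt genes was 1.97 in the active and 2.23 in the inactive period, against 0.37 and 0.33 for all genes. The summed normalized count of the 13 genes was 133934 to 162170.0 in active males against 52906 to 68835 in active females, and 135347 to 159750.0 in inactive males against 54388 to 66987 in inactive females. The sums of the sexes did not overlap in either period. Most of the male sum came from Ugt2b38 and Ugt3a2, while the female sum was led by Ugt3a2 and Ugt1a2.

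The Ugt2b subfamily conjugates steroids, bile acids and drugs in rodents, and it held the widest male excess. Ugt2b38 stood at 54712 to 75459.6 (median 66833) normalized counts in active males against 1794 to 3728 (median 2901) in active females. In the inactive period it was at 53431 to 67047 (median 59135) in males and 3172 to 5456 (median 3953) in females. No male library came near a female one, and the male mean was 23.4-fold the female mean in the active and 14.5-fold in the inactive period (log2 fold 4.59 ± 0.16, adjusted p = 3.80e-16, and 3.88 ± 0.16, adjusted p = 9.04e-15). Ugt2b37 was at 7627 to 10363 (median 9026) in active males against 17.6 to 64.8 (median 47.2) in active females. Inactive males had 6674 to 10106 (median 8605), against 41.0 to 74.8 (median 55.0) in inactive females. This was the steepest male excess of any member, 200.7-fold in the active and 149.8-fold in the inactive period (log2 fold 7.72 ± 0.22, adjusted p = 1.87e-17, and 7.21 ± 0.22, adjusted p = 7.32e-17). Ugt2b5, far less abundant, was at 245 to 329.8 (median 289) in active males and 34.2 to 56.0 (median 44.3) in active females (log2 fold 2.71 ± 0.14, adjusted p = 2.20e-16). In the inactive period it was at 201.0 to 330.4 (median 257) in males and 45.6 to 65.9 (median 53.1) in females (log2 fold 2.23 ± 0.14, adjusted p = 2.94e-14). The groups did not overlap for any of these 3 genes.

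Reads of these neighbours can be hard to part, because 41.7% of the 50-base words of Ugt2b5, 37.4% of those of Ugt2b38 and 18.3% of those of Ugt2b37 occur in another gene. Ugt2b5 was 0.351 to 0.618% of the Ugt2b38 count in the male libraries and 0.940 to 2.57% in the female ones. Ugt2b37 was 12.4 to 17.9% of Ugt2b38 in male libraries and 0.483 to 2.98% in female ones. Neither share overlapped between the sexes, that of Ugt2b37 being larger in males and that of Ugt2b5 larger in females. Whether reads of one gene were counted for another was not tested.

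Ugt2b34 lies in the same chromosomal group and ran the other way. It was at 809 to 1062 (median 944) in active males against 3254 to 4241 (median 3716) in active females. In inactive males it was at 841 to 1089 (median 912), against 3649 to 4452 (median 4235) in inactive females. Again the groups were apart in both periods, with female means 3.92 and 4.41 times the male ones (log2 fold -1.97 ± 0.072, adjusted p = 5.45e-20, and -2.14 ± 0.072, adjusted p = 6.63e-21). Ugt2a3, a related gene of this group, was higher in males, at 72.5 ± 11.8 in males against 24.5 ± 8.59 in females, in normalized counts of the active period (mean ± SD, n = 6 each, log2 fold 1.58 ± 0.23, adjusted p = 6.52e-07). Opposite directions within 1 gene group are the reason to set the start sites of these genes side by side.

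These windows run from 250 bases before to 50 bases after each start in RefSeq on GRCm38.p6, 5′ to 3′ on the minus strand: chr5:87424154-87424453 for Ugt2b38, chr5:87254739-87255038 for Ugt2b37, chr5:87140291-87140590 for Ugt2b5 and chr5:86906888-86907187 for Ugt2b34. Capitals mark AAAGGTCA, a half-site read by nuclear receptors.
Ugt2b38: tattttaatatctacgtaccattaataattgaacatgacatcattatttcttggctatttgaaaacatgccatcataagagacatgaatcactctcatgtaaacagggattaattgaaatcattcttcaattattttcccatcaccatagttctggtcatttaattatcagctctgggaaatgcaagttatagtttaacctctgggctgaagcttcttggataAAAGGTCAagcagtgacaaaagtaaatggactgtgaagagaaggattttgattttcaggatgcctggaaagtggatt
Ugt2b37: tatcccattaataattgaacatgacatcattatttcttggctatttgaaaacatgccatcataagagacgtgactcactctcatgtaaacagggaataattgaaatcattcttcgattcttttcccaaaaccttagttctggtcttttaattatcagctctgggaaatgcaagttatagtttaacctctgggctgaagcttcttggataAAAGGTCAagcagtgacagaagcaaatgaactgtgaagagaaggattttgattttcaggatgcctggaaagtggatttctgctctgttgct
Ugt2b5: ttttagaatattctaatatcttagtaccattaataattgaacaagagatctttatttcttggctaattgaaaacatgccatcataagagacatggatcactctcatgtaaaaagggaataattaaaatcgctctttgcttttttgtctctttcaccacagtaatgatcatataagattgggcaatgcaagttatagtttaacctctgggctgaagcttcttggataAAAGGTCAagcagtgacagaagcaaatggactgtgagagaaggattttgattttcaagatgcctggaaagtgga
Ugt2b34: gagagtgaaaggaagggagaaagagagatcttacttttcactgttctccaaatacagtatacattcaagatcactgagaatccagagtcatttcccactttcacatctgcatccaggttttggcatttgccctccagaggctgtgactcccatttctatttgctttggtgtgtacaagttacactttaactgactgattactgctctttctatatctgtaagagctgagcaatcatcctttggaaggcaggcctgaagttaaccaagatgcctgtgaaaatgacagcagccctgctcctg
These 3 Ugt2b genes with a male excess carry the letters 27, 41 and 24 bases before the start of Ugt2b38, Ugt2b37 and Ugt2b5, in that order, and the windows of Ugt2b34 and of Ugt2a3, which was also higher in males, do not. Among 45 windows of 35 members with an entry these were the only 3 matches, and 1.51% of 32851 windows of all genes hold the letters on either strand. The 3 windows share long identical stretches and are not independent. Laid over each other at the motif without gaps, Ugt2b37 and Ugt2b38 agree at 94.8% of 286 bases, and the stretch through the motif is identical over 82 bases. Ugt2b5 shares an identical run of 72 bases with Ugt2b37 and of 62 with Ugt2b38 there. In the same overlay Ugt2b5 matches Ugt2b37 at 50.9% of 283 bases and Ugt2b38 at 49.2% of 297. An overlay without gaps does not follow inserted or lost bases. A match is a description of the letters and not a site shown to be bound.

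Further motifs were sought on both strands of the 45 windows, each with its share among all windows. The D-box TTATGNAA was in 2 member windows, of Gstt1 and Ugt1a10 (3.38% of all windows). The antioxidant response element TGACNNNGC was in 3, of Gsta3, Gstm5 and Gstm7 (12.4%). The STAT5 site TTCNNNGAA was in 3, of Gsta1, Gstm6 and Ugt1a6a (8.30%), and the HNF4 site CAAAGTCCA in 1, of Sult1b1 (0.475%). The E-box CACGTG (7.15%) was in none.

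**Figure D2:**
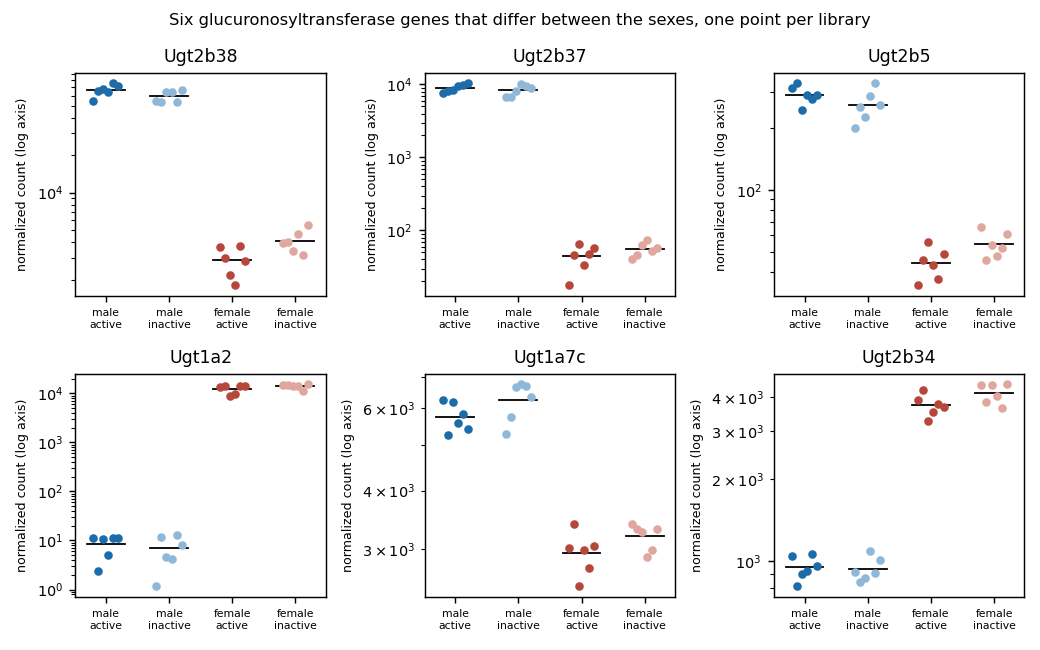
Normalized counts (log axes) of 6 Ugt genes in each library, with a bar at the group mean (6 libraries a group, ordered male active, male inactive, female active, female inactive). Ugt2b38, Ugt2b37, Ugt2b5 and Ugt1a7c are higher in every male library, and Ugt1a2 and Ugt2b34 are higher in every female library.

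The Ugt1a genes form 1 locus in which each gene has its own first exon and shares the later exons with the others. Of their exonic bases 50.3 to 82.7% lie in exons of another gene, and no source used here says how reads in shared exons were counted. Ugt1a8, with 59.2% of its exonic bases so shared, had 6 reads over all libraries beside 176112 for Ugt1a2. Reads in shared exons were thus not counted for every gene that holds them. Levels per kilobase divide by all exonic bases, shared ones included, so those of Ugt1a genes can be understated. Ugt1a2 was close to absent in males, at 2.42 to 11.4 (median 10.9) in active males against 9037 to 14323 (median 13858) in active females. In the inactive period it was at 1.16 to 12.7 (median 6.39) in males and 11139.6 to 15352 (median 14450.2) in females. Its female mean was 1445 times the male mean in the active and 1985 times in the inactive period (log2 fold -10.46 ± 0.38, adjusted p = 1.25e-15, and -11.00 ± 0.38, adjusted p = 6.99e-16). No other member differed so much, and per kilobase Ugt1a2 stood at 3.90 and 3.21 in active and inactive males against 5637 and 6378 in active and inactive females. Ugt1a1, the bilirubin-conjugating form, was low throughout and lower in males, at 4.05 ± 2.27 in males against 62.7 ± 16.0 in females in the active period (log2 fold -3.85 ± 0.45, adjusted p = 1.42e-08). Ugt1a10 was at 14.7 ± 5.56 in active males and 216 ± 60.5 in active females (log2 fold -3.83 ± 0.30, adjusted p = 5.12e-12).

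At the same locus Ugt1a7c and Ugt1a6b went the opposite way. Ugt1a7c, the most abundant Ugt1a gene of males, was at 5261 to 6251 (median 5719) in active males against 2493 to 3396 (median 2999) in active females (log2 fold 0.97 ± 0.067, adjusted p = 2.07e-13), and the groups did not overlap. Ugt1a6a and Ugt1a6b, near copies whose products conjugate small phenols, split between the sexes. Ugt1a6a averaged 103 ± 20.6 in inactive males against 445 ± 98.8 in inactive females (log2 fold -2.10 ± 0.16, adjusted p = 3.54e-12). Ugt1a6b averaged 41.9 ± 9.88 in inactive males against 8.26 ± 3.40 in inactive females (log2 fold 2.26 ± 0.36, adjusted p = 3.36e-06). Of the 50-base words of Ugt1a6b 79.8% occur in another gene, so how reads fell between these copies is uncertain.

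The Ugt3a genes have human relatives that use other sugar donors, UDP-N-acetylglucosamine for UGT3A1, and for UGT3A2 UDP-glucose and UDP-xylose. Ugt3a2 was abundant in every library, at 57724 to 63122 (median 61526) in active males against 30992 to 38869 (median 35474) in active females. In inactive males it was at 60272 to 67826 (median 65166), against 29776 to 35624 (median 33295) in inactive females. Every male library was above every female one, by 1.74-fold and 1.98-fold in the means (log2 fold 0.80 ± 0.053, adjusted p = 8.98e-14, and 0.98 ± 0.053, adjusted p = 8.96e-16). Ugt3a1 was also higher in males, with a log2 fold of 0.56 ± 0.093, adjusted p = 1.29e-05 in the active and 1.22 ± 0.093, adjusted p = 3.35e-11 in the inactive period.

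Among the Gst genes 13 of 19 passed between the sexes in either period, 8 higher and 5 lower in males in the active period, and 6 higher and 7 lower in the inactive period. That share is near the 60.6% and 55.7% of all genes that passed in these periods. Their summed count was 60973 to 74301 in active males against 59716 to 68874 in active females, and the groups overlapped. In the inactive period it was 56711 to 65798 in males against 68400.4 to 72993 in females, with no overlap and the females higher.

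The alpha class, which handles lipid peroxidation products and also isomerises steroids, was lower in males wherever it differed. Gsta2 was at 5158 to 6412 (median 5650.4) in active males against 13224 to 18009.8 (median 15476) in active females. In inactive males it was at 4293 to 6629.7 (median 5131), against 19533 to 22248 (median 21249.8) in inactive females. The sexes were fully apart, with log2 folds of -1.43 ± 0.085, adjusted p = 5.62e-14, and -2.02 ± 0.085, adjusted p = 3.60e-17. Gsta4, whose enzyme is known for 4-hydroxynonenal, a product of lipid peroxidation, was at 1022 to 1264 (median 1083) in active males against 5289.6 to 8756 (median 5971) in active females. It was at 843 to 971 (median 877) in inactive males against 4598 to 7357 (median 5676) in inactive females. Its log2 folds were -2.54 ± 0.10, adjusted p = 2.94e-16, and -2.69 ± 0.10, adjusted p = 1.06e-16, the largest of the Gst genes. Gsta1 averaged 5.62 ± 4.13 in males against 23.4 ± 12.5 in females in the active period (log2 fold -1.92 ± 0.53, adjusted p = 0.0026), and 90.5% of its 50-base words occur in another gene, so its value is uncertain. Gsta3, which lies on another chromosome than these 3, averaged 5842 ± 653 in active males and 5828 ± 588 in active females, did not pass (log2 fold 0.0021 ± 0.081, adjusted p = 0.984), and was lower in males when libraries were scaled to equal totals (-0.27, adjusted p = 0.00751).

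The pi class ran higher in males. Gstp1, a broad detoxifying enzyme, was at 3537 to 4740.4 (median 4158) in active males against 1561 to 1737 (median 1669) in active females. Its inactive values were 2848 to 3498 (median 3385) in males and 1699 to 1981 (median 1883) in females. There was no overlap in either period (log2 fold 1.29 ± 0.061, adjusted p = 2.69e-17, and 0.82 ± 0.061, adjusted p = 1.69e-12). Gstp2 was low, at 72.9 ± 24.1 in males against 16.9 ± 15.5 in females in the active period (log2 fold 2.30 ± 0.34, adjusted p = 1.25e-06), and 54.3% of its 50-base words occur in another gene, mostly Gstp1. Under equal totals its call in the inactive period was lost (adjusted p = 0.0588). It was 1.096 to 2.65% of the Gstp1 count in male libraries and 0.378 to 3.27% in female ones.

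Of the 6 mu class genes, which sit next to each other, Gstm1 was the most abundant and was higher in males, at 15195 ± 935 in males against 9093 ± 697 in females in the active period (log2 fold 0.74 ± 0.058, adjusted p = 2.77e-12) and 14301 ± 1137 in males against 10154 ± 625 in females in the inactive period (log2 fold 0.49 ± 0.058, adjusted p = 1.82e-08). Gstm5 passed as higher in males in both periods, with a log2 fold of 0.56 in the active and 0.26 in the inactive period, the second of which was -0.02 under equal totals. Gstm4 passed as higher in active males (log2 fold 0.68 ± 0.11, adjusted p = 5.78e-06), Gstm7 as lower in active males (-0.36 ± 0.11, adjusted p = 0.00707) and Gstm2 as lower in inactive males (-0.47 ± 0.10, adjusted p = 2.27e-04), each in that period only, and Gstm6 passed in neither. The test of whether these sex differences changed with the period did not pass for any of the 6, the smallest adjusted p being 0.0824. It passed for Gstm5 with the replicate block (adjusted p = 0.0342) and under equal totals (0.0491), for Gstm4 by DESeq2 (0.0433), and without male active replicate 1 for Gstm4 (0.0296) and Gstm1 (0.0419).

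The omega class genes take part in reducing dehydroascorbate and arsenic compounds. Gsto1 was at 966 to 1119 (median 1006) in active males against 1919.6 to 2165 (median 2033) in active females. Inactive males had 974 to 1188 (median 1101), against 1875 to 2116 (median 1905) in inactive females. No libraries of the sexes overlapped (log2 fold -0.99 ± 0.052, adjusted p = 3.89e-16, and -0.82 ± 0.052, adjusted p = 4.45e-14). Gsto2 was low and passed in the inactive period (log2 fold -0.70 ± 0.25, adjusted p = 0.017), a call that was lost without male inactive replicate 6 (adjusted p = 0.0549). Gstz1, the maleylacetoacetate isomerase of tyrosine breakdown, averaged 14402 ± 1249.9 in active males against 8115 ± 810.1 in active females (log2 fold 0.83 ± 0.060, adjusted p = 6.82e-13). Among the theta genes Gstt2 was higher in males in both periods, and Gstt1 was lower in inactive males (log2 fold -0.19 ± 0.062, adjusted p = 0.0126). Gstk1, the mitochondrial and peroxisomal kappa form, was slightly higher in active males (log2 fold 0.22 ± 0.076, adjusted p = 0.0117) but at -0.051 under equal totals, where the call was lost (adjusted p = 0.532).

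No Sult gene differed 2-fold between the sexes, and 3 of the 7 passed in the active and 4 in the inactive period. These were 42.9% and 57.1% of the Sult genes, against 60.6% and 55.7% of all genes. Sult1a1, a phenol sulfotransferase, was at 597 to 832 (median 732) in active males against 812 to 1103 (median 952) in active females. In inactive males it was at 428 to 691 (median 443), against 659 to 809 (median 766) in inactive females. The ranges of the sexes overlapped in both periods, in the inactive one through male inactive replicate 2 alone (691, the next male library at 515), and both tests passed (log2 fold -0.39 ± 0.10, adjusted p = 0.00102, and -0.63 ± 0.10, adjusted p = 3.05e-06). Sult1c2 was lower in males with no overlap, at 2742 ± 88.1 in males against 3293 ± 165 in females in the active and 2932 ± 181 in males against 3458 ± 259 in females in the inactive period (log2 fold -0.26 ± 0.051, adjusted p = 4.82e-05, and -0.24 ± 0.051, adjusted p = 2.11e-04). Sult1b1, which sulfates thyroid hormones and phenols, was higher in males, at 311 ± 28.1 in males against 232 ± 33.3 in females in the active period and 297 ± 30.9 in males against 202 ± 24.1 in females in the inactive period (log2 fold 0.42 ± 0.10, adjusted p = 8.16e-04, and 0.55 ± 0.10, adjusted p = 4.43e-05). Under equal totals its call was lost in the active period (adjusted p = 0.216). Sult2b1, Sult5a1 and Sult6b1 were low and passed in neither period.

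Scaling matters for the small sex differences. The authors' normalized totals were 35.97 to 39.5 M in males and 29.6 to 32.4 M in females, so equal totals move the median log2 fold of all genes to -0.32 in both periods, against -0.045 in the active and -0.039 in the inactive period as deposited. Under equal totals the split of members was 15 higher and 17 lower in the active period, and 14 higher and 21 lower in the inactive period. Of all 17333 genes 2635 were then higher and 8821 lower in active males, and 2051 higher and 9054 lower in inactive males. The counts of lower members have to be read against that shift. The 3 Ugt2b genes with a male excess, Ugt1a2, Ugt2b34, Gsta2 and Gsta4 kept their direction and call between the sexes under every alternative run.

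Genes for the supply of glucuronic acid, sulfate and glutathione differed between the sexes as well, in comparisons where 30.1% of all genes were higher in males in the active and 27.9% in the inactive period. Of 8 genes for UDP-glucuronic acid and PAPS supply 7 were higher and 1 lower in males in both periods, or 6 and 1 in the active and 5 and 1 in the inactive period under equal totals. Equal totals left 2635 of all 17333 genes higher and 8821 lower in active males, and 2051 and 9054 in inactive males. Ugdh, which makes UDP-glucuronic acid, averaged 5610.1 ± 353 in active males against 3517 ± 293 in active females (log2 fold 0.68 ± 0.062, adjusted p = 8.81e-11). Slc35d1, which carries UDP-glucuronic acid into the endoplasmic reticulum, had a log2 fold of 0.45 ± 0.050, adjusted p = 5.78e-09. The PAPS synthases split, with Papss1 higher (0.71 ± 0.065, adjusted p = 8.21e-11) and Papss2 lower in males (-0.42 ± 0.052, adjusted p = 4.26e-08). Slc26a1, a sulfate transporter of the tubule, was higher (log2 fold 0.65 ± 0.068, adjusted p = 1.59e-09). Of 4 glutathione genes 3 passed as higher in active males and 4 in inactive males, against 2 in active and 3 in inactive males under equal totals, where Gsr lost its active call (adjusted p = 0.88) and Gclc its inactive one (0.0988). Glutathione synthetase, Gss, had log2 folds of 1.30 ± 0.064, adjusted p = 7.73e-17, and 1.03 ± 0.064, adjusted p = 2.69e-14.

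The mercapturate steps follow glutathione conjugation. Of 12 genes 9 were higher and 1 lower in active males, against 30.1% higher and 30.5% lower of all genes, and 6 were higher and 2 lower in inactive males, against 27.9% and 27.8%. Under equal totals 7 were higher and 2 lower in active males, and 5 and 5 in inactive males. Of all 17333 genes 2635 were then higher and 8821 lower in active males, and 2051 and 9054 in inactive males. Acy3, the aminoacylase that removes the acetyl group from mercapturic acids, was at 52647 to 81437 (median 67895) in active males against 6194 to 9962 (median 9072) in active females (log2 fold 2.99 ± 0.12, adjusted p = 1.43e-15). Nat8, which acetylates cysteine conjugates, was at 7923 to 11913 (median 9784) in active males against 1542 to 1963 (median 1737) in active females (log2 fold 2.48 ± 0.12, adjusted p = 1.66e-14). Ggt1, the brush border enzyme that cleaves glutathione conjugates, was at 36278 to 59980.4 (median 44846) in active males against 12862 to 15987 (median 15590.4) in active females (log2 fold 1.63 ± 0.086, adjusted p = 4.59e-15). For these 3 genes the sexes did not overlap. Ggt5 was the gene lower in both periods (log2 fold -0.44 ± 0.14, adjusted p = 0.00974, and -0.90 ± 0.14, adjusted p = 3.50e-06). Of 3 tested genes listed for reverse reactions, Gusb, the lysosomal glucuronidase, was higher in active males (log2 fold 1.47 ± 0.086, adjusted p = 7.17e-15). The sulfatase Arsb was also higher (0.96 ± 0.066, adjusted p = 1.85e-13), and the sulfatase Arsa was lower (-0.40 ± 0.077, adjusted p = 5.32e-05). Whether these sulfatases act on products of Sult enzymes was not tested. Sts was not analysed here.

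**Figure D3:**
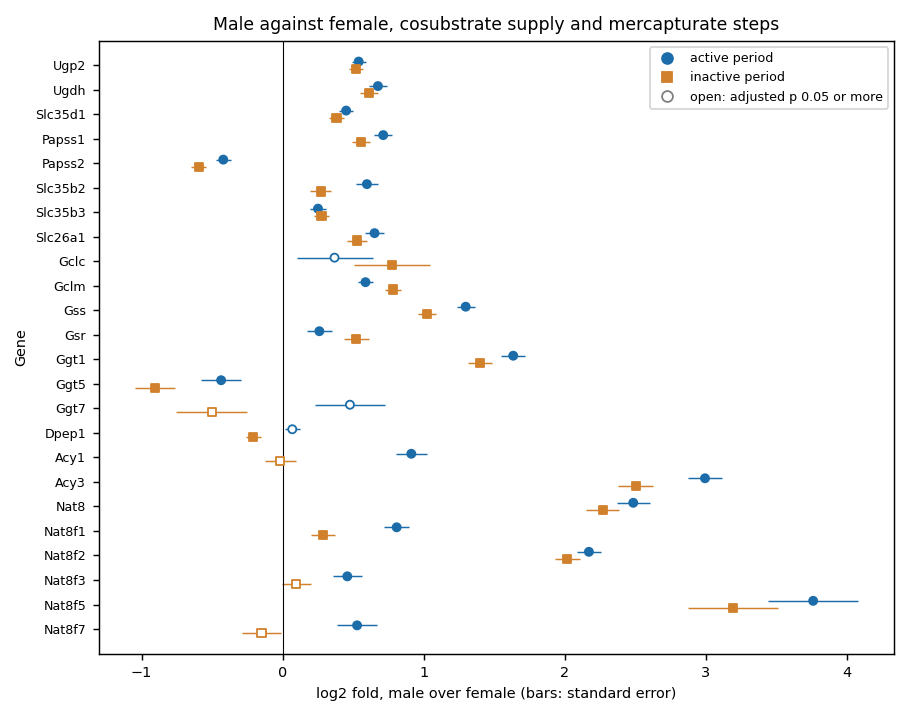
Log2 fold of males over females (horizontal axis, bars are standard errors) for 8 genes of UDP-glucuronic acid and PAPS supply, 4 of glutathione supply and 12 of the mercapturate steps, from top to bottom, with circles for the active and squares for the inactive period. Filled symbols passed the test. Nat8f5 (3.76) and Acy3 (2.99) lie farthest right in the active period, and Papss2 and Ggt5 lie left of 0 in both.

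Regulators known from liver and kidney were also listed. Of 18 tested sensors and hormone receptors 7 were higher and 7 lower in active males, and 7 and 6 in inactive males, in comparisons that 60.6% and 55.7% of all genes passed, against 4 and 8 in active and 5 and 8 in inactive males under equal totals. Equal totals left 2635 of all 17333 genes higher and 8821 lower in active males, and 2051 and 9054 in inactive males. Prlr, the prolactin receptor, had the widest difference, at 129.6 to 550.1 (median 230.3) in active males against 7463 to 14337 (median 12225) in active females (log2 fold -5.49 ± 0.37, adjusted p = 4.58e-11). Esr1, an oestrogen receptor, was higher in active males (1.35 ± 0.11, adjusted p = 2.33e-11), and Nr1i2, the pregnane X receptor, was lower (-0.96 ± 0.13, adjusted p = 1.16e-07). Of 13 Nrf2 target genes outside the families 10 were higher and 2 lower in active males, and 9 and 2 in inactive males, where 30.1% and 27.9% of all genes were higher. Under equal totals 7 were higher and 2 lower in active males, and 6 and 3 in inactive males. The malic enzyme gene Me1 (log2 fold 1.58 ± 0.067, adjusted p = 1.79e-18) and Nqo1 (0.87 ± 0.10, adjusted p = 4.34e-08) were higher. The export pumps Abcc3 (-4.65 ± 0.19, adjusted p = 5.33e-16) and Abcc4 (-1.75 ± 0.10, adjusted p = 4.74e-14), which carry conjugates out of cells, were the 2 that were lower, while Abcc2 was higher (0.58 ± 0.079, adjusted p = 2.89e-07).

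Markers of the cell types moved with sex too. The summed count of 6 proximal tubule markers was 276666 to 304600.0 in active males against 199995 to 247359 in active females, and 259267 to 275305 in inactive males against 223539 to 260131 in inactive females. The sums of the sexes overlapped in the inactive period. By gene, 4 of the 6 were higher and 2, Lrp2 and Cubn, lower in males in both periods. The sum of 5 markers of the first proximal segments was higher in every male library of a period than in every female one, with 1 gene higher and 2 lower in active males, and 1 higher and 3 lower in inactive males. The sum of 5 markers of the last proximal segment was 126302 to 150626 in active males against 48355 to 70094 in active females, with 2 genes higher and 3 lower. That of 3 podocyte markers was 7370.4 to 8757 in active males against 13941 to 15144 in active females, that of 3 distal convoluted tubule markers 36615 to 40701 in active males against 57054 to 70051 in active females, and that of 3 thick ascending limb markers 59221 to 73558 in active males against 89954 to 105161 in active females. In the inactive period the thick ascending limb sums overlapped, at 58568 to 78692 in males against 68896 to 91161.5 in females. By gene, 1 of these 3 markers passed as lower in inactive males, against 3 in active males. Endothelial sums were 7193 to 8738 in active males against 9273 to 12268 in active females, and stromal sums 4741 to 5622 in active males against 6010.0 to 7741 in active females. Of 7 adrenal markers 2 that define the cortex, Cyp11b1 and Cyp11b2, were at 0 in all libraries. The list still summed to 205 to 282 in active males against 231 to 307 in active females. Of the 7, 2 reached the filter, and 1 passed as lower in males in each period. Liver marker sums were 781 to 1435 in active males against 855 to 1122 in active females, and fat marker sums were 13.3 to 832 in active males against 40.3 to 1081 in active females. The part of any of these in the sex differences was not tested, and in bulk RNA fewer cells of a type and less RNA per cell cannot be told apart.

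The active and inactive periods differed in fewer members. In males 8 of the 39 passed between the periods, 6 higher and 2 lower in the active period, against 15.4% of all genes, 8.43% higher and 6.95% lower. In females 12 passed, 4 higher and 8 lower, against 15.0% of all genes, 7.97% higher and 6.98% lower. A difference of at least 2-fold that also passed was found for none in males, where 1.22% of all genes reached that size, and for 1 member in females, against 1.14% of all genes. The periods did not overlap for 5 members in males, against 4.29% of all genes, and for 6 in females, against 7.83%. Neither sex passed for 23 members. Joint calls over both sexes were not counted over all genes.

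Sult1d1, whose enzyme sulfates dopamine and other catecholamines in the mouse, had the widest period difference of any abundant member, and it was in females. It was at 39557 to 45042 (median 42476) in active males against 34092 to 47102 (median 36768) in inactive males. In females it was at 39971 to 56432 (median 47935) in the active against 21455 to 35768 (median 27159) in the inactive period. The male ranges overlapped, while every active female library lay above every inactive one (log2 fold 0.14 ± 0.11, adjusted p = 0.404 in males, and 0.83 ± 0.11, adjusted p = 8.58e-06 in females). The period change was smaller in males than in females, with a difference of log2 folds of -0.69 ± 0.15, adjusted p = 0.0179, and adjusted p = 0.0502 with no filter on low values. The sum of the 7 Sult genes was 43458 to 48840.3 in active males against 38057 to 50477 in inactive males, and 44853 to 61056 in active females against 25752 to 40102 in inactive females. In the inactive period the order of the sexes for Sult1d1 was male above female (log2 fold 0.51 ± 0.11, adjusted p = 3.36e-04), and in the active period the sexes did not pass (-0.18 ± 0.11, adjusted p = 0.155). The ranges of the sexes overlapped in both periods.

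Of the members, 3 passed in the same direction in both sexes. Gsta3 was higher in the active period, at 5154 to 6968 (median 5794) in active males against 3729.9 to 5088 (median 4357) in inactive males (log2 fold 0.42 ± 0.081, adjusted p = 9.16e-04). In females it was at 5127 to 6814 (median 5773) in the active against 3624 to 4685 (median 4215) in the inactive period (log2 fold 0.48 ± 0.081, adjusted p = 1.29e-04). Its periods did not overlap in either sex. Sult1a1 was also higher in the active period in males (log2 fold 0.58 ± 0.10, adjusted p = 1.76e-04) and females (0.35 ± 0.10, adjusted p = 0.0145). Gstt2, a theta class enzyme, was lower, at 5196 to 7106 (median 5954) in active males against 6522 to 8400.5 (median 7798) in inactive males, with overlap (log2 fold -0.33 ± 0.070, adjusted p = 0.00199). In females it was at 3351 to 4030.3 (median 3508) in the active against 4893 to 6327 (median 5621) in the inactive period, without overlap (log2 fold -0.65 ± 0.070, adjusted p = 9.75e-08).

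**Figure D4:**
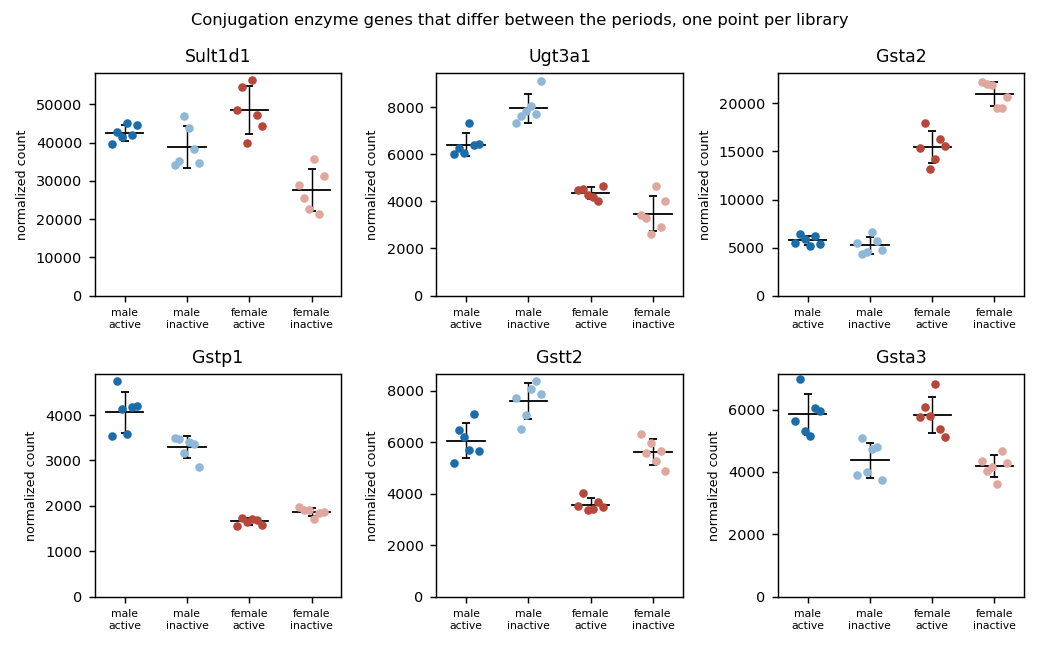
Normalized counts (linear axes from 0) of 6 genes in each library, with the mean and SD of each group of 6, ordered male active, male inactive, female active, female inactive. Sult1d1 is higher in active than inactive females, Ugt3a1 is lower in active than inactive males, and Gsta3 is higher in the active period of both sexes.

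Ugt3a1 was the 1 member that passed in opposite directions. It was at 6007 to 7322 (median 6311) in active males against 7332 to 9109 (median 7767) in inactive males, where the groups were just apart (log2 fold -0.31 ± 0.093, adjusted p = 0.0252). In females it was at 4034 to 4667 (median 4359.7) in the active against 2593 to 4655 (median 3349) in the inactive period, with overlap (log2 fold 0.35 ± 0.093, adjusted p = 0.0109). The difference between the sexes in this change passed, at -0.66 ± 0.13, adjusted p = 0.00941. The call in males was lost without male active replicate 2 or male inactive replicate 6 (adjusted p = 0.0609 to 0.0695) and with no filter on low values (0.0594), and the call in females was lost when females were fitted alone (0.0688).

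The other calls in females were mostly Gst genes that were lower in the active period. Gsta2 had a log2 fold of 0.15 ± 0.085, adjusted p = 0.253 in males. In females it was at 13224 to 18009.8 (median 15476) in the active against 19533 to 22248 (median 21249.8) in the inactive period, without overlap (log2 fold -0.45 ± 0.085, adjusted p = 4.93e-04), and the difference between the sexes passed at 0.59 ± 0.12, adjusted p = 0.00941. Gstm4 was at 190.1 to 283 (median 260.0) in active females against 324 to 461 (median 410.4) in inactive females, also without overlap (log2 fold -0.67 ± 0.11, adjusted p = 8.25e-05). Gstm2 (-0.36 ± 0.10, adjusted p = 0.0125) and Gstp2 (-1.29 ± 0.34, adjusted p = 0.00971) were lower as well, Gstp2 being the member beyond 2-fold. Gstp2 was at 6.42 to 47.8 in active females against 16.4 to 55.6 in inactive females, with overlap. It rests on few reads, 108 over the active female libraries, 49 of them in replicate 2, and 239 over the inactive ones. Of its 50-base words 54.3% occur in another gene. Gstt3 was lower by less (log2 fold -0.21 ± 0.064, adjusted p = 0.0215), and its call was lost without female active replicates 1 or 6 or female inactive replicates 1 or 3 (adjusted p = 0.053 to 0.0711) and with no filter on low values (0.0522). Ugt2b38, the male-biased gene above, was lower in active females (log2 fold -0.54 ± 0.16, adjusted p = 0.0227), a call lost without female active replicates 3 or 4 or female inactive replicates 4 or 6 (0.0517 to 0.0572) and in females fitted alone (0.101).

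In males the calls were mostly Gst genes that were higher in the active period. Gstp1 was at 3537 to 4740.4 (median 4158) in active males against 2848 to 3498 (median 3385) in inactive males, with the lowest active library just above the highest inactive one (log2 fold 0.30 ± 0.061, adjusted p = 0.00132). In females the change was -0.17 ± 0.061, adjusted p = 0.0515, and the difference between the sexes passed at 0.47 ± 0.086, adjusted p = 0.00465. Gstt1 was at 2734 to 3682 (median 3074) in active males against 2156 to 2643 (median 2556) in inactive males (log2 fold 0.32 ± 0.062, adjusted p = 7.85e-04), again without overlap. Gstm5 (log2 fold 0.24 ± 0.071, adjusted p = 0.021) lost its call without male active replicate 2 or male inactive replicate 6 (0.0668 to 0.0702). Gsta4 (0.32 ± 0.10, adjusted p = 0.0422) lost its call in 9 of the 24 fits with 1 library left out, those without male active replicates 2, 3, 5 or 6 or male inactive replicates 1, 2, 3, 4 or 6 (0.0542 to 0.113), and with no filter, under equal totals and by edgeR (0.0613 to 0.104).

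Whether the period change differed by sex was tested as the change in males minus the change in females. Of the 39 members 5 passed, 3 positive and 2 negative, against 2.71% of all genes, 1.41% positive and 1.30% negative. The positive count was 2 to 6 with 1 library left out. It was 2 to 6 under the other alternatives. Besides Gsta2, Gstp1, Sult1d1 and Ugt3a1 this was Ugt1a6a. Ugt1a6a was at 85.2 to 147 (median 138) in active males against 83.4 to 140.0 (median 97.4) in inactive males, and at 206 to 368 (median 305) in active females against 303 to 544 (median 489.5) in inactive females. Both pairs of ranges overlapped, and the log2 fold was 0.30 ± 0.16, adjusted p = 0.221 in males and -0.57 ± 0.16, adjusted p = 0.0144 in females. The difference between the sexes (0.87 ± 0.23, adjusted p = 0.0358) was lost in 11 of the 24 fits with 1 library left out, namely without female active replicates 5 or 6, female inactive replicates 1, 3, 4 or 6, male active replicates 2, 3 or 6, or male inactive replicates 3 or 4 (0.051 to 0.0679), and with no filter on low values (0.0602). Its call in females was lost without female active replicate 5 (0.0515). None of the 5 reached 2-fold. The median of this difference was 0.23 over the members and 0.0095 over all genes. The comparisons in males and females share no library, but each also enters this difference.

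**Figure D5:**
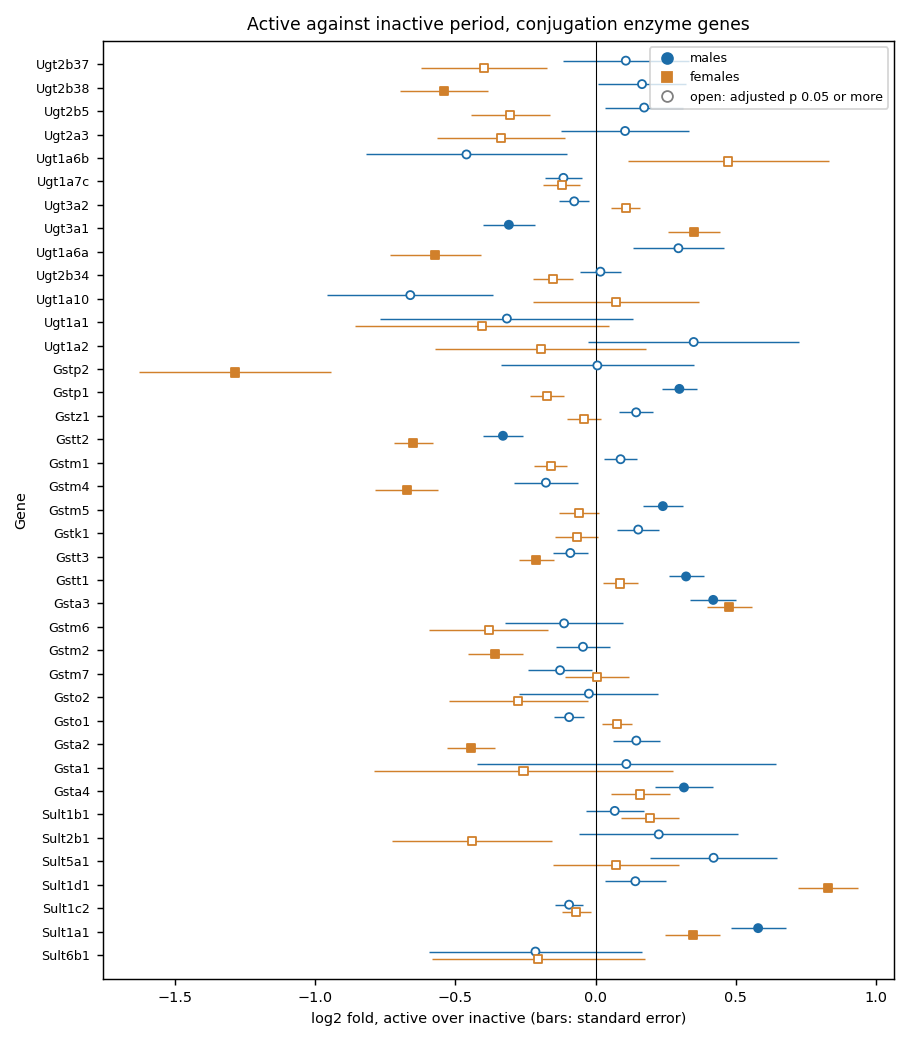
Log2 fold of the active over the inactive period (horizontal axis, bars are standard errors) for the 39 genes in rows, with circles for males and squares for females. Filled symbols passed the test. Most symbols lie within 0.5 of 0 on the log2 scale, Sult1d1 stands out to the right in females and Gstp2 to the left.

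The neighbouring pathway genes changed with the period in part. Of all genes 15.4% passed between the periods in males, 15.0% in females, and 2.71% in the difference between the sexes. Of the 8 genes for UDP-glucuronic acid and PAPS supply 2 were lower and none higher in active males (3 lower under equal totals), and 4 were lower and none higher in active females. Slc35d1 was lower in both (log2 fold -0.25 ± 0.050, adjusted p = 0.0013 in males, and -0.32 ± 0.050, adjusted p = 4.23e-05 in females), as was Papss2 (-0.16 ± 0.052, adjusted p = 0.0303 in males, and -0.34 ± 0.052, adjusted p = 2.59e-05 in females). The 4 glutathione genes did not pass, with adjusted p from 0.0795 to 0.868 over both sexes, and 1 was lower in active females and 1 positive in the interaction under equal totals. Of the 12 mercapturate genes 6 were higher and none lower in active males (4 higher under equal totals), and 1 was higher and 3 lower in active females. Acy1, an aminoacylase, went opposite ways, higher in active males (log2 fold 0.38 ± 0.11, adjusted p = 0.0221) and lower in active females (-0.55 ± 0.11, adjusted p = 0.00138). The difference between the sexes passed for Acy1 (0.93 ± 0.16, adjusted p = 0.00465), Nat8f1 (0.52 ± 0.12, adjusted p = 0.0207) and Dpep1 (0.28 ± 0.076, adjusted p = 0.0417). Of the 3 tested genes of the reverse reactions none passed in males and 1 was lower in active females. Of 18 sensors 3 were higher and 3 lower in active males, and 1 was lower in active females, Ppara being lower in both (log2 fold -0.57 ± 0.11, adjusted p = 8.43e-04 in males, and -0.54 ± 0.11, adjusted p = 8.03e-04 in females). Of 13 Nrf2 targets 1, Txnrd1, was higher in active males (not under equal totals, adjusted p = 0.0613), and 3 were higher and 2 lower in active females. Proximal tubule marker sums by period were 276666 to 304600.0 in active against 259267 to 275305 in inactive males, and 199995 to 247359 in active against 223539 to 260131 in inactive females. Sums of 5 markers of the first proximal segments were 48658 to 56305 in active against 55407 to 60215 in inactive males, and 27519.6 to 38863 in active against 45056 to 50257 in inactive females, with 3 of the 5 lower in active males and 2 in active females. Their part in the period differences was not tested.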

How the data were processed

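Poly A RNA of 24 mouse kidney samples was measured. The deposited signal values are gene counts that the authors divided by 1 size factor per library, as read from the values. Per the submitters' processing notes, the build was GRCm39 and the tools included DESeq2 1.28.1, featureCounts, Subread 2.0.6 and Trim Galore 0.6.10. No source used here gives the strand setting, the annotation or the treatment of reads in shared exons. Dividing by each library's step gave whole reads within 0.05, used in edgeR and DESeq2. In male active replicate 4 and female inactive replicate 4 the step is near 1, and there whole reads could not be told from rounding.

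Symbols (52073 of 56748 identifiers, 99.2% of the signal), exons and 50-base words came from an annotation of GRCm38, and promoter windows from RefSeq on GRCm38.p6. Of the candidates 1 pseudogene was left out. The 17333 genes with a mean of at least 10 were fitted as log2(normalized count + 1) with limma 3.58.1 in R 4.3.3, all 24 libraries together, 4 group means, a trended robust prior and 20 residual degrees of freedom. The 5 contrasts were adjusted over all genes by Benjamini and Hochberg, and genes under 0.05 were called. Fold changes of low genes are understated on this scale. The method was tested on simulated data.

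Members and gene lists were chosen with earlier results of these data known. Full values are given, per family and contrast, for up to 4 called members with the smallest p and for all called in the interaction, with neighbours of the same gene group added. Of 7 motifs searched 1 is not reported here. Alternatives were pseudocounts of 0.5 and 5, no filter, TMM, equal totals, only the groups compared, edgeR 4.0.16, DESeq2 1.42.0, a replicate block and each library left out.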

Additional observations from a re-analysis of the deposited data

Results flagged for a closer look

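Within groups of 6 libraries, 9 of 156 gene and group pairs had a highest or lowest library whose gap to the next, divided by the range of the group, was above Dixon's critical value for a group of that size. Chance alone gives about 1 in 20. Among active females, replicate 2 stood highest for 3 genes: Gstk1 at 2143 (next 1814), Gstp2 at 47.8 (next 14.6) and Sult5a1 at 106 (next 69.3). Among active males, Gstm5 was highest in replicate 2 at 5019.5 (next 3864), and Ugt3a1 in replicate 4 at 7322 (next 6426). Among inactive males, Sult1a1 was highest in replicate 2 at 691 (next 515). Among inactive females, replicate 5 was highest for Gsto1 at 2116 (next 1942) and lowest for Ugt1a2 at 11139.6 (next 14245), and replicate 3 was highest for Gstt1 at 3220.2 (next 2867).

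The period change differed between the sexes for 5 members by the interaction term of the limma fit. Male minus female change on the log2 scale was 0.87 for Ugt1a6a, 0.59 for Gsta2, 0.47 for Gstp1, -0.66 for Ugt3a1 and -0.69 for Sult1d1.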

How the results depend on the processing

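Of 195 pairs of member and contrast 84 were called, and 70 of these kept the call under every alternative run. Left-out libraries ended 8 calls and other alternatives 11, some of them the same. Counts of members called higher and lower ranged, with 1 library left out, over 4 to 7 and 1 to 3 for the period in males, 4 to 4 and 7 to 10 in females, 2 to 6 and 2 to 2 for the interaction, 17 to 17 and 12 to 13 for sex in the active, and 16 to 16 and 13 to 15 in the inactive period. With no filter on low values 1 member was lower in males between the periods, and 1 was negative in the interaction. DESeq2 called 6 members positive in the interaction. Leaving out female active replicate 2 gave 5 positive ones and leaving out male active replicate 1 gave 6, with Gstt2 added both times, Gstp2 the first time, and Gstm1 and Gstm4 the second. Equal totals reversed Gsta3 (-0.27 active, -0.22 inactive), Gstk1 (-0.051 active, -0.28 inactive), Gstt1 (-0.23 active), Gstm5 (-0.0187 inactive) and Gstt3 (-0.27 inactive) between the sexes. All but Gstk1 in the active and Gstm5 in the inactive period then passed as lower in males (adjusted p = 0.00112 to 0.0288). It also ended the sex call of Gstp2 in the inactive period (adjusted p = 0.0588). The cause was not tested. Over all genes the interaction had 470 calls, 937 with DESeq2 and 247 with no filter, and the period in males had 2665, or 1756 when males were fitted alone.

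Each title number of a period occurs in both sexes. Of 12 pairs so numbered 1 had deviations correlated above 0.1 (median 0.0091), so no broad shared deviation was seen. This cannot show whether equal numbers mark paired samples, which the labels do not say. With the replicate block 4 members instead of 3 were positive in the interaction, Gstm5 being added (adjusted p = 0.0342), and the other counts of called members were the same.

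Depth limits the low members. Gsta1, Gstp2 in females, Ugt1a1, Ugt1a2 in males, Ugt1a6b and Sult6b1 rest on few reads per library.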

Other observations

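Relatives of the 3 families outside the rule for membership differed between the sexes as well. Of 16 such genes 6 were higher and 7 lower in males in either period, or 4 and 9 in the active and 5 and 10 in the inactive period under equal totals. As deposited, 30.1% of all genes were higher and 30.5% lower in active males, and 27.9% and 27.8% in inactive males. Equal totals left 2635 of all 17333 genes higher and 8821 lower in active males, and 2051 and 9054 in inactive males. Ugt8a, which makes galactosylceramide, was at 6297 to 7319 (median 6601) in active males against 361 to 597 (median 519.8) in active females (log2 fold 3.74 ± 0.10, adjusted p = 5.09e-21). The carbohydrate sulfotransferase genes split, with Chst7 (4.26 ± 0.19, adjusted p = 1.63e-17) and Chst11 (2.78 ± 0.081, adjusted p = 1.58e-22) higher in males and Chst15 lower (-1.51 ± 0.10, adjusted p = 3.04e-14). Hpgds, a sigma class Gst that makes prostaglandin D, was lower in males (-0.97 ± 0.18, adjusted p = 3.92e-05), as was the microsomal Mgst1 (-0.47 ± 0.057, adjusted p = 2.07e-08). Between the periods 3 of the 16 were higher in active males and 1 in active females, with Clic4 in both (0.26 ± 0.043, adjusted p = 1.41e-04 in males, and 0.34 ± 0.043, adjusted p = 1.35e-06 in females). Of all genes 8.43% were higher in active males and 7.97% in active females. Under equal totals Mgst3 lost its call in males (adjusted p = 0.053).

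Sums of the remaining marker lists were 6299.5 to 8375 in active males, 5601 to 8139 in inactive males, 4086 to 6573 in active females and 6319 to 8582 in inactive females for principal cells. For intercalated cells they were 6801 to 7718 in active males, 6776 to 8193 in inactive males, 8505 to 12360.2 in active females and 7554 to 9244 in inactive females. For macrophages they were 2218 to 3326 in active males, 2070.2 to 2580.3 in inactive males, 2326 to 2803 in active females and 2476 to 2928 in inactive females, and for urothelium 201.2 to 518 in active males, 238 to 386 in inactive males, 278 to 577 in active females and 346 to 604 in inactive females. The adrenal list summed to 205 to 282 in active males, 202 to 321 in inactive males, 231 to 307 in active females and 253 to 366 in inactive females.

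Among members below the filter, reads over the 6 libraries of a group were 45 in active males, 48 in inactive males, 13 in active females and 12 in inactive females for Gstp3. Ugt1a9 had 0 reads in active males, 12 in inactive males, 48 in active females and 27 in inactive females. Neither was tested.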
